A study of Mus musculus with 12 samples.

Results

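The suppressors of cytokine signalling, SOCS1 to SOCS7 and CISH, form a family of feedback inhibitors of cytokine receptors. Its 8 genes (*Socs1*, *Socs2*, *Socs3*, *Socs4*, *Socs5*, *Socs6*, *Socs7* and *Cish*) were taken by name from the 48623 genes of the expression table, and each had 1 Ensembl identifier there. They were followed in primary microglia, the resident macrophages of the brain, cultured from cortex and hippocampus of newborn C57BL/6J mice, either wild type (WT) or carrying the R47H knock-in allele of *Trem2* on both chromosomes (KI). From each of 3 WT cultures (T13, T33 and T43) and 3 KI cultures (T15, T22 and T32) polyadenylated RNA was sequenced without treatment and after interleukin-4 (IL-4) at 20 ng/ml for 48 h, which made 12 libraries in 4 groups of 3. In this mouse line the allele also lowers *Trem2* itself through altered splicing, so that a KI culture differs from WT in the amount as well as in the sequence of the receptor. Pups of the knock-in line were cultured singly and genotyped afterwards, and microglia were purified by lifting an astrocyte layer from mixed glia. Values are TPM, transcript abundances scaled for length and to the same library total, which allow levels of different genes to be compared within a library.

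IL-4 binds a receptor of the IL-4Rα and common gamma chains, whose Janus kinases (JAKs) phosphorylate the transcription factor STAT6. Cytokine-activated STATs switch on several SOCS genes, and the proteins made from them return to the receptor complex. There their SH2 domain binds phosphotyrosine and their SOCS box recruits an elongin and cullin ubiquitin ligase. SOCS1 and SOCS3 also block JAK catalytic activity through a short kinase inhibitory region, while CISH and SOCS2 are classical targets of STAT5 that restrain growth hormone and related receptors. SOCS4 to SOCS7 carry a longer amino-terminal part and are best known as regulators of receptor tyrosine kinases and insulin signalling. In macrophages SOCS1 restrains interferon-γ and IL-4 signals, and SOCS3 restrains signals through gp130, the shared chain of the IL-6 receptors.

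The region before the start of *Socs1* is shown because this gene had the widest range of values in the family, and a short stretch of *Socs3* is shown beside it because that gene showed no shared direction after IL-4. RefSeq promoter windows on GRCm38.p6 were matched for 4 of the 8 genes (*Socs1*, *Socs3*, *Socs4* and *Cish*), and the 250 bases before each start were searched on both strands for 3 patterns. These were TTCNNNGAA, the core of sites bound by most STATs, TTCNNNNGAA, the wider spacing favoured by STAT6, and GAAANNGAAA, the core of the interferon-stimulated response element. The *Socs1* window lies at chr16:10785537-10785786 on the minus strand, just outside the annotated gene, and the *Socs3* stretch of 30 bases at chr11:117969501-117969530, also on the minus strand. The latter precedes the RefSeq start of *Socs3* but lies inside the annotated span of the gene. Both are written 5′ to 3′ along the gene, with matches in capitals.
*Socs1*: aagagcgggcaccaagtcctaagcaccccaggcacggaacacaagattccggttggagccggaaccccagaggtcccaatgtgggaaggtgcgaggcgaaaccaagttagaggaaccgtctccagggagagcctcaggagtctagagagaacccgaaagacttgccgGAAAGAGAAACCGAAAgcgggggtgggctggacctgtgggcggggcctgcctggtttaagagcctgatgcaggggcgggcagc
*Socs3*: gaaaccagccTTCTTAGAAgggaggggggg
In *Socs1* the capitals join 2 overlapping matches to GAAANNGAAA, GAAAGAGAAA at 83 to 74 bases and GAAACCGAAA at 77 to 68 bases before the start, and neither STAT pattern occurred in the window. In *Socs3* the capitals mark 1 match to TTCNNNGAA, TTCTTAGAA, at 154 to 146 bases before the RefSeq start. The *Socs4* and *Cish* windows held no match. Among 32851 windows of this length in the RefSeq table, 7.02% held TTCNNNGAA, 5.85% held TTCNNNNGAA and 2.98% held GAAANNGAAA. A match describes the letters only, and no binding was measured.

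Untreated WT microglia mainly contained *Socs6* among the SOCS transcripts, and after IL-4 *Socs1* took the first place. Summed over the 8 genes, the family had 61.7, 66.3 and 44.0 TPM in untreated T13, T33 and T43, and 270.0, 157 and 187 TPM in the same cultures after IL-4. In KI cultures the sum was 68.6 TPM in T15, 77.2 TPM in T22 and 141 TPM in T32 without IL-4, and 193, 234 and 129 TPM with it. The sum was thus higher after IL-4 in 5 of 6 cultures, T32 being the exception. *Socs1* made up 0% to 7.55% of the sum in untreated WT libraries and 54.3% to 70.3% after IL-4, against 9.42% to 18.5% and 38.4% to 54.9% in KI libraries. *Socs6* had the highest TPM of the 8 genes in all 6 untreated libraries and in IL-4-treated T32, and *Socs1* in the other 5 libraries.

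**Figure D1:**
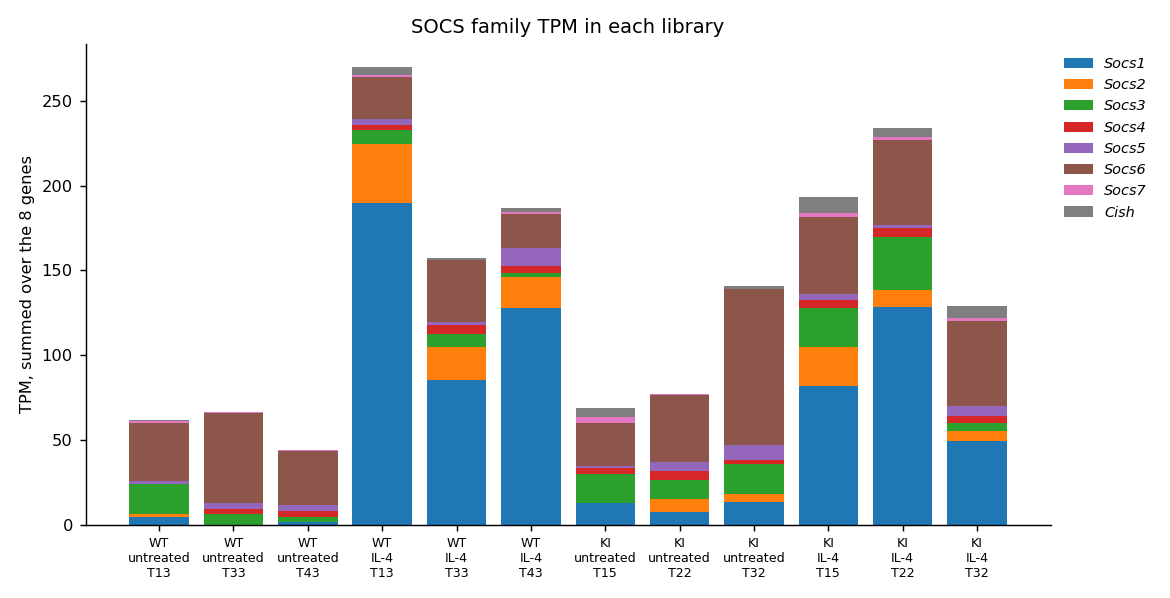
TPM of the 8 SOCS family genes stacked for each of the 12 libraries, 1 bar per library with its group and culture below it and 1 colour per gene. *Socs1* filled 54.3% to 70.3% of the bars of IL-4-treated WT cultures and at most 7.55% of those of untreated WT cultures.

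In untreated WT libraries *Socs6* stood at 39.7 ± 11.6 TPM (SD, n = 3), above the range of every other member. *Socs3* at 8.78 ± 7.83 TPM, *Socs5* at 3.21 ± 1.19 TPM and *Socs4* at 2.23 ± 1.92 TPM followed, each overlapping the next, and *Socs1*, *Socs2*, *Socs7* and *Cish* lay lowest with ranges that also overlapped from one to the next. In untreated KI libraries *Socs6* again stood apart at 52.4 ± 35.0 TPM, and the ranges of the other 7 overlapped from each to the next from *Socs3* at 15.3 ± 3.47 TPM to *Socs7* at 1.31 ± 1.58 TPM. After IL-4 the WT order was *Socs1* at 134 ± 52.5 TPM, then *Socs6* at 27.1 ± 8.43 TPM with *Socs2* at 24.1 ± 9.26 TPM, which overlapped each other and were clear of *Socs1* above and of *Socs3* at 5.96 ± 3.11 TPM below. In KI cultures after IL-4, *Socs1* at 86.4 ± 39.8 TPM overlapped *Socs6* at 48.3 ± 2.89 TPM, and *Socs6* was clear of *Socs3* at 19.8 ± 13.7 TPM.

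*Socs1* (ENSMUSG00000038037, chr16:10782240-10785536, minus strand, GRCm38) encodes a direct inhibitor of JAKs, and its values were higher after IL-4 in every culture. In WT cultures it went from 4.66 to 189.8 TPM in T13, from a listed 0 to 85.5 TPM in T33 and from 1.53 to 128 TPM in T43. In KI cultures it went from 12.7 to 81.6 TPM in T15, from 7.28 to 128 TPM in T22 and from 13.6 to 49.4 TPM in T32. All 6 IL-4-treated libraries lay above all 6 untreated ones, which was the case for *Socs1* alone among the 7 members tested and for 1.12% of the 11204 genes tested. The ratio of IL-4-treated to untreated TPM was 40.8 in T13 and 83.8 in T43, and it was 6.43, 17.6 and 3.62 in T15, T22 and T32. No ratio is given for T33, where the untreated value was listed at 0.

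On the scale log2(TPM + 1), which understates changes of low values, the fitted *Socs1* difference between IL-4-treated and untreated libraries was 4.25 (SE 0.39) averaged over genotypes, 5.73 (SE 0.54) in WT and 2.78 (SE 0.54) in KI cultures. By the average it ranked 4 of 11204 genes. The response of *Socs1* to IL-4 was known when the family was chosen, so it is given as a description, with no p, and its place past the threshold below is no independent evidence. The fit was made with limma on all genes with a mean log2(TPM + 1) above 1.5. Of the 8 members 7 passed that limit and *Socs7* did not. *Socs2* and *Cish* had means of 1.22 and 0.80 over the untreated libraries alone and passed through their IL-4-treated libraries.

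*Socs2* (ENSMUSG00000020027, chr10:95385362-95417180, minus strand), whose product restrains growth hormone signalling, was under 2 TPM in 4 of 6 untreated libraries and was higher after IL-4 in all 6 cultures. In WT cultures it went from 1.72 to 34.8 TPM in T13, from 0.0326 to 19.6 TPM in T33 and from 0.105 to 18.1 TPM in T43. In KI cultures it went from 0.0679 to 23.0 TPM in T15, from 7.64 to 10.1 TPM in T22 and from 4.58 to 6.00 TPM in T32. The WT groups did not overlap, whereas in KI cultures the untreated T22 library lay above IL-4-treated T32. The KI cultures were unlike each other, with log2 differences of 4.49 in T15, 0.36 in T22 and 0.33 in T32, against 3.72, 4.32 and 4.11 in the WT cultures. The average difference was 2.89 on the log2 scale (SE 0.52). It did not pass the threshold in the fit of all genes without a filter (limma F-test, adjusted p = 0.253), and passed it in the filtered fit (limma, adjusted p = 0.0239), which it entered through its IL-4-treated libraries. In the filtered fit the call depended on single WT cultures, since the limma adjusted p was 0.131 without T13, 0.243 without T33 and 0.244 without T43, with differences of 2.97, 2.82 and 2.87. It was also lost there with a pseudocount of 0.1 (limma adjusted p = 0.0912) and with no variance trend (0.0814).

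In the filtered fit *Socs1* and *Socs2* were past the threshold for IL-4, as were 0.893% of all genes, and 0.75% were past it and higher. Nothing is read from the members' count, since *Socs1* was known to respond and *Socs2* entered through its IL-4-treated libraries. The 0.893% were 100 genes without and 240 with culture as a replicate block. The summed TPM of 18 microglia markers was also higher after IL-4 in 6 of 6 cultures, and 2 of them passed the threshold in limma, *C1qa* higher (adjusted p = 0.0391) and *Cx3cr1* lower (adjusted p = 0.042). The 5 endothelial markers summed to 19.4 to 29.1 TPM in untreated libraries and to more in every IL-4-treated one, up to 141 TPM, and *Flt1* of that list was higher after IL-4 in 6 of 6 cultures by 1.96 on the log2 scale (SE 0.20, limma, adjusted p = 0.00056), while *Cldn5* and *Tek* were at 0 in all 12 libraries. The part of these markers in the SOCS differences was not tested. With a score of astrocyte markers as a covariate the differences were 4.19 for *Socs1* and 2.92 for *Socs2* (limma, adjusted p = 0.00933 for *Socs2*).

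*Cish* (ENSMUSG00000032578, chr9:107296026-107302784, plus strand), the founding member of the family, was also higher after IL-4 in all 6 cultures, at low TPM. In WT cultures it went from 0.373 to 4.88 TPM in T13, from a listed 0 to 1.19 TPM in T33 and from 0.0934 to 2.61 TPM in T43. In KI cultures it went from 5.22 to 9.64 TPM in T15, from 0.0182 to 4.91 TPM in T22 and from 1.99 to 6.75 TPM in T32. The WT groups did not overlap, and in KI cultures untreated T15 lay above IL-4-treated T22. The average log2 difference of 1.61 (SE 0.47) did not pass the threshold with the filter (limma, adjusted p = 0.413) or without it (limma, adjusted p = 0.867). With a pseudocount of 0.1 it was 3.15 and did not pass either (limma, adjusted p = 0.559). *Socs1*, *Socs2* and *Cish* were the 3 of the 7 members tested that were higher after IL-4 in 6 of 6 cultures, where 5.73% of the genes tested were. They were also the 3 of the 7 whose IL-4-treated WT values all lay above the untreated ones, as in 10.8% of genes. In KI cultures this held for *Socs1* alone, as in 5.47%. Nothing is read from these counts, since *Socs1* was known to respond and *Socs2* and *Cish* entered through their IL-4-treated libraries.

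**Figure D2:**
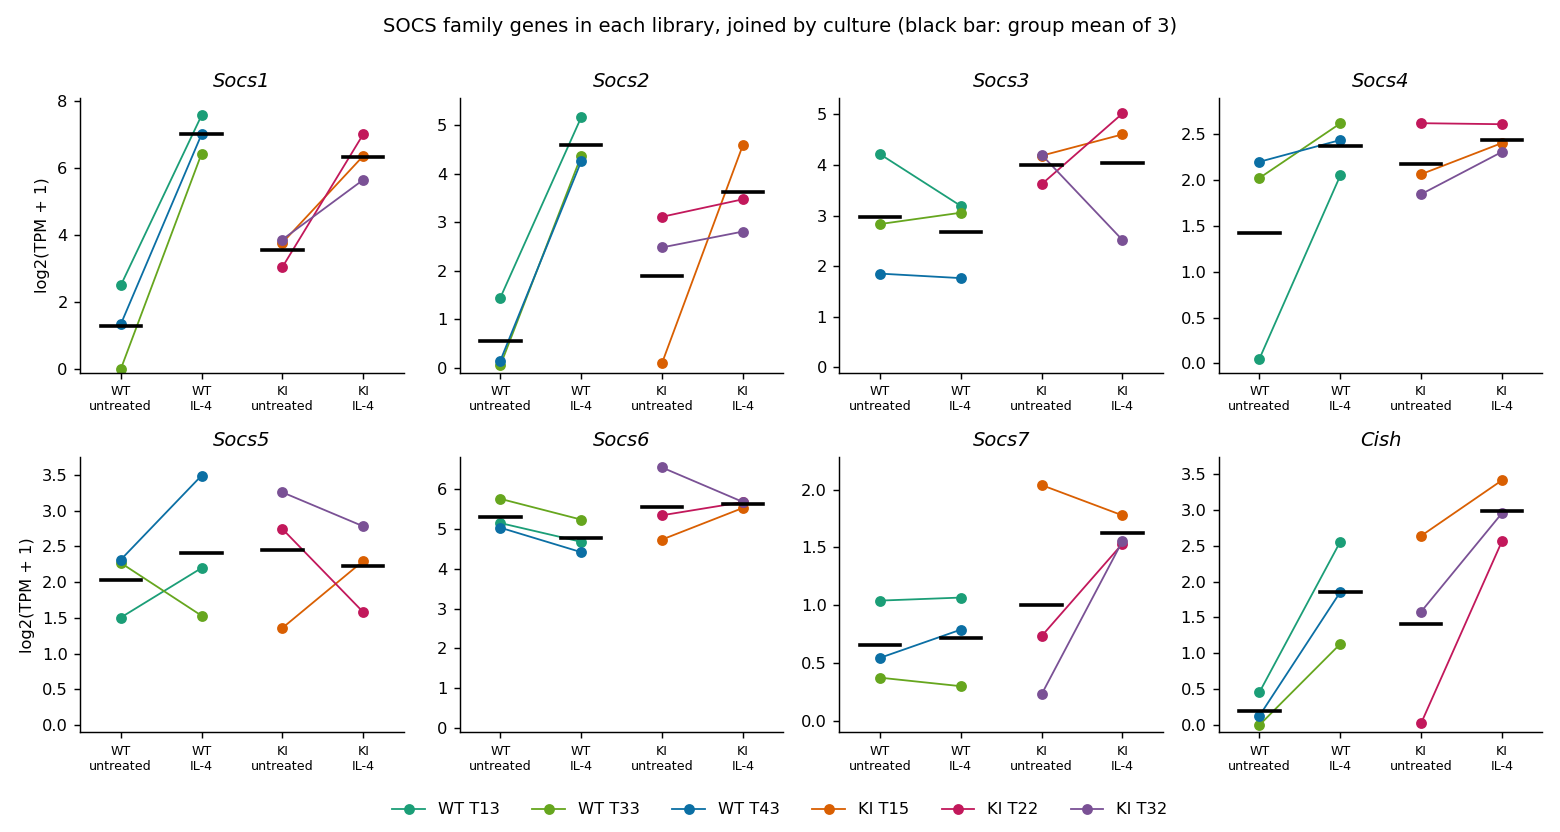
log2(TPM + 1) of each of the 8 genes in the 4 groups, 1 point per library, with lines that join the untreated and IL-4-treated library of a culture and black bars for the means of 3 libraries. *Socs1*, *Socs2* and *Cish* lines rise in all 6 cultures, steeply for *Socs2* in T15 and by 0.36 and 0.33 in T22 and T32, while *Socs3*, *Socs5* and *Socs6* lines run both ways.

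*Socs3* (ENSMUSG00000053113, chr11:117966079-117970047, minus strand) encodes the inhibitor of gp130 signals and had no shared direction. In WT cultures it went from 17.6 to 8.15 TPM in T13, from 6.13 to 7.33 TPM in T33 and from 2.62 to 2.40 TPM in T43. In KI cultures it went from 17.2 to 23.3 TPM in T15, from 11.3 to 31.4 TPM in T22 and from 17.4 to 4.73 TPM in T32. It was higher after IL-4 in 3 of 6 cultures, and the groups overlapped in both genotypes. The average log2 difference was -0.13 (SE 0.49, limma, adjusted p = 1.00). It became 0.31 without T32 and 0.06 without T13.

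The 4 members with a long amino-terminal part did not pass the threshold for IL-4. *Socs6* (ENSMUSG00000056153, chr18:88665224-88927481, minus strand), a regulator of receptor tyrosine kinases, was lower after IL-4 in all 3 WT cultures, from 34.4 to 24.5 TPM in T13, from 52.9 to 36.6 TPM in T33 and from 31.6 to 20.3 TPM in T43. In KI cultures it went from 25.6 to 45.0 TPM in T15, from 39.5 to 49.9 TPM in T22 and from 92.0 to 50.1 TPM in T32. The IL-4-treated KI values lay within 45.0 to 50.1 TPM although the untreated ones spanned 25.6 to 92.0 TPM. The log2 difference was -0.54 (SE 0.38) in WT and 0.09 (SE 0.38) in KI cultures, and -0.22 on average (SE 0.27, limma, adjusted p = 0.977). The average turned to 0.01 without T32.

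*Socs4* (ENSMUSG00000048379, chr14:47276931-47296102, plus strand) and *Socs5* (ENSMUSG00000037104, chr17:87107679-87137839, plus strand) are close relatives that act on the epidermal growth factor receptor. *Socs4* ranged from 2.60 to 5.15 TPM in 11 of the 12 libraries and was 0.0363 TPM in untreated T13. Its log2 difference after IL-4 was 0.60 (SE 0.41, limma, adjusted p = 0.949), and 0.34 without T13. *Socs5* ranged from 1.57 to 10.3 TPM, was higher after IL-4 in T13, T43 and T15 and lower in T33, T22 and T32. Its log2 difference was 0.07 (SE 0.45, limma, adjusted p = 1.00). *Socs7* (ENSMUSG00000038485, chr11:97362551-97398542, plus strand), an adaptor in insulin signalling, was the lowest member on average and ranged from 0.171 to 3.11 TPM. It was higher after IL-4 in T13, T43, T22 and T32, with a log2 difference of 0.34 (SE 0.34, limma without a filter, adjusted p = 0.888).

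The second comparison was between KI and WT cultures, which answers whether lower and altered TREM2 goes with another level of these inhibitors. Marker genes of other cells differed between the genotypes. The summed TPM of 10 astrocyte markers ranged without IL-4 from 167 to 693 for WT and from 221 to 4803 for KI, and with IL-4 from 180 to 619 for WT and from 613 to 3674 for KI, with both maxima in T15. All 9 astrocyte markers tested were higher in KI cultures with a median log2 difference of 1.63, although none passed the threshold in limma and 5 had an unadjusted p under 0.05. The 9 mural and fibroblast markers summed without IL-4 to 141 to 320 TPM for WT and 1051 to 1313 TPM for KI, and with IL-4 to 236 to 553 TPM for WT and 701 to 1190 TPM for KI, so neither pair of groups overlapped. Of the 4 of them tested *Acta2* (log2 difference 2.11, SE 0.23, limma, adjusted p = 0.00296) and *Tagln* (1.93, SE 0.26, limma, adjusted p = 0.00626) were called higher in KI cultures. Both had the highest means of the list, 660 and 474 TPM in untreated KI libraries. *Col1a1* and *Col1a2*, not called, were higher in KI cultures on average, by 0.54 and 0.61. After IL-4 their means were 33.1 and 30.0 TPM in WT, with highest values of 85.9 and 81.7 TPM, against 14.0 and 10.3 TPM in KI libraries. The 10 oligodendrocyte lineage markers summed to 69.5 to 151 TPM in WT and 143 to 547 TPM in KI libraries, with *Olig1* called higher in KI cultures (log2 difference 2.69, SE 0.52, limma, adjusted p = 0.0438). Of the 7 of them tested 5 had higher and 2 lower average values in KI cultures, *Cspg4* with a log2 difference of -1.50 (SE 0.53, limma, adjusted p = 0.287) and *Mag* with -0.13. The 5 neuron markers summed without IL-4 to 4.49 to 14.5 TPM for WT and 12.8 to 31.1 TPM for KI, and with IL-4 to 3.97 to 11.8 TPM for WT and 15.1 to 38.4 TPM for KI, where the groups did not overlap. Of the 2 of them tested, *Tubb3* and *Stmn2*, neither passed the threshold for genotype in limma, and *Stmn2*, higher in KI cultures by 1.42 on the log2 scale (SE 0.37, limma, adjusted p = 0.133), had an unadjusted p under 0.05. The 5 lymphocyte markers summed to at most 0.113 TPM in any library. The 18 microglia markers summed without IL-4 to 24542 to 27321 TPM for WT and 10847 to 22542 TPM for KI, and with IL-4 to 28554 to 32263 TPM and 18202 to 25055 TPM. Of 17 tested 5 were called lower in KI cultures and none higher, with the smallest limma adjusted p for *Aif1* (log2 difference -0.93, SE 0.15, adjusted p = 0.0211). Defining markers of lymphocytes (*Cd79a* and *Ncr1*) were at 0 in all 12 libraries, as was *Syt1* alone among the neuron markers. In bulk RNA fewer cells of a type and less RNA per cell cannot be told apart. As a check of the labels, *Trem2* was 1190 to 1886 TPM in WT and 325 to 770 TPM in KI libraries.

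Untreated *Socs1* was 4.66, 0 and 1.53 TPM in the WT cultures and 12.7, 7.28 and 13.6 TPM in the KI cultures, with every KI value above every WT value. It was the only one of the 7 members tested for which this held, where 13.6% of the genes tested did so. The fitted difference between untreated KI and WT cultures was 2.29 on the log2 scale (SE 0.54). After IL-4 the order of the means was the opposite, 86.4 ± 39.8 TPM in KI against 134 ± 52.5 TPM in WT (SD, n = 3), with a log2 difference of -0.66 (SE 0.54) and overlapping ranges. Both genotype differences together did not pass the threshold (average 0.81, SE 0.39, limma F-test, adjusted p = 0.0835). The average was 1.26 and passed it without T13 (limma, adjusted p = 0.0308), fell to 0.35 without T33 (limma, adjusted p = 0.237) and was 1.45 with a pseudocount of 0.1 (limma, adjusted p = 0.175). With the astrocyte marker score as a covariate the average was 0.35 (limma, adjusted p = 0.122).

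No member of the 7 tested passed the threshold for genotype in limma, beside 1.65% of all genes, which were 185 genes without and 77 with culture as a replicate block. At an unadjusted p under 0.05 the limma F-test counted 1 of them, *Socs1*, and 16.1% of all genes. All 7 had average values above those of WT as deposited, *Socs5* not when libraries were quantile normalized, with a median log2 difference of 0.54. The median of all tested genes was itself 0.13 in that direction as deposited, and it became -0.08 when libraries were quantile normalized and 0.02 when they were scaled by median ratios. Relative to the deposited median the log2 differences were 1.08 for *Socs3*, 1.05 for *Cish*, 0.68 for *Socs1*, 0.41 for *Socs6*, 0.28 for *Socs4*, 0.06 for *Socs2* and -0.01 for *Socs5*.

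*Socs3* was 11.3 to 17.4 TPM in untreated KI and 2.62 to 17.6 TPM in untreated WT libraries, with T13 as the WT culture that reached the KI range. After IL-4 it was 23.3 and 31.4 TPM in T15 and T22 and 4.73 TPM in T32, against 2.40 to 8.15 TPM in WT. Its average KI minus WT difference was 1.21 on the log2 scale (SE 0.49, limma, adjusted p = 0.375), 0.62 with the astrocyte covariate and 0.70 without T43. *Cish* differed by 1.17 (SE 0.47, limma, adjusted p = 0.378), by 0.36 with that covariate, by 0.76 without T15 and by 1.90 with a pseudocount of 0.1. Its highest value in each treatment, 5.22 and 9.64 TPM, was in T15, the culture with the highest astrocyte marker sum. *Socs6* differed by 0.54 (SE 0.27, limma, adjusted p = 0.435), by 0.78 with the covariate, by 0.28 without T32 and by 0.35 when libraries were quantile normalized.

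After IL-4 the KI values of *Socs6* and *Cish* all lay above the WT values, 2 of the 7 members tested where 12.7% of tested genes did so, and those of *Socs7*, which was below the filter, did so too. For *Socs6* these were 45.0, 49.9 and 50.1 TPM against 24.5, 36.6 and 20.3 TPM, a log2 difference of 0.85 (SE 0.38). For *Cish* they were 9.64, 4.91 and 6.75 TPM against 4.88, 1.19 and 2.61 TPM, so that T22 and T13 were nearly equal. For *Socs7* they were 2.43, 1.89 and 1.94 TPM against 1.09, 0.229 and 0.726 TPM. Since *Cish* passed the filter through its IL-4-treated libraries, the count of members is only a description. The part of the other cell types in these values was not tested beyond the covariate fit.

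**Figure D3:**
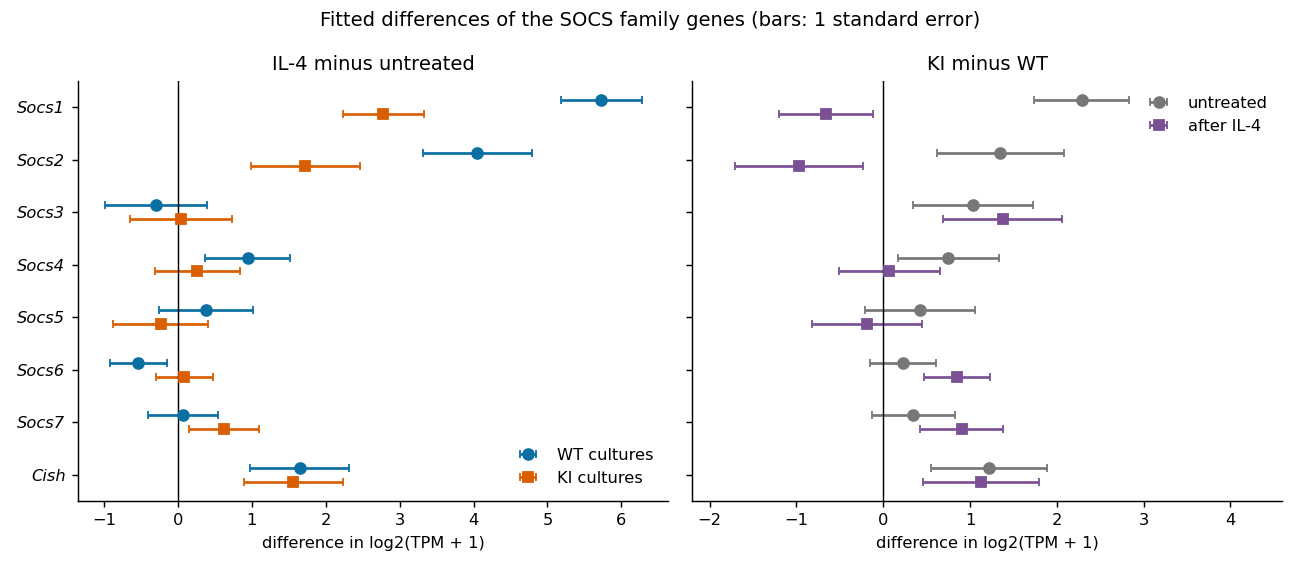
Fitted differences in log2(TPM + 1) of the 8 genes with 1 standard error, IL-4 minus untreated on the left (circles WT cultures, squares KI cultures) and KI minus WT on the right (circles untreated, squares after IL-4). *Socs1* and *Socs2* have the largest differences on the left, 5.73 and 4.05 in WT and 2.78 and 1.73 in KI cultures, and on the right they lie above 0 without and below 0 with IL-4.

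Whether IL-4 changed a gene by different amounts in KI and WT cultures was tested with the interaction of genotype and IL-4. The *Socs1* response was smaller in KI cultures by 2.95 on the log2 scale, that is -2.95 (SE 0.77), which limma gave an unadjusted p of 0.00192 and an adjusted p of 1.00. In TPM the mean rose by 132 in WT and by 75.2 in KI cultures. The *Socs1* culture differences on the log2 scale were 5.08, 6.43 and 5.67 in WT and 2.59, 3.97 and 1.78 in KI cultures, while in TPM the increase in KI culture T22 was larger than in WT culture T33. For *Socs2* the response was 4.05 (SE 0.74) in WT and 1.73 (SE 0.74) in KI cultures, an interaction of -2.32 (SE 1.04), with a limma unadjusted p of 0.0431 and an adjusted p of 1.00. KI culture T15, with a difference of 4.49, lay above all 3 WT cultures, and the interaction was -3.70 without it, -1.64 without T22 and -1.62 without T32.

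The *Cish* response was 1.65 (SE 0.67) in WT and 1.56 (SE 0.67) in KI cultures, with an interaction of -0.09 (SE 0.95) that was -0.97 with a pseudocount of 0.1. For *Socs6* the interaction was 0.62 (SE 0.54), and for *Socs3* it was 0.34 (SE 0.98). None of the 11204 genes passed the threshold for the interaction in limma. At an unadjusted p under 0.05 there were 357 genes, 3.19% of those tested, among them *Socs1* and *Socs2*, and 240 of the 357 (2.14% of those tested) had the smaller response in KI cultures.

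**Figure D4:**
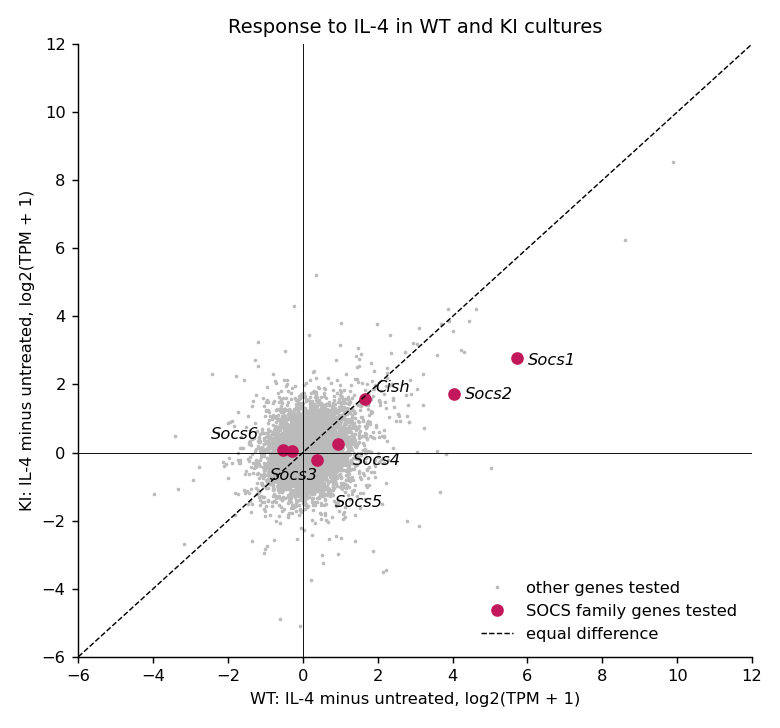
Each point is 1 of 11204 genes, with the fitted difference in log2(TPM + 1) between IL-4-treated and untreated libraries in WT cultures on the horizontal axis and in KI cultures on the vertical axis. The 7 SOCS family genes tested are labelled, and the dashed line marks equal differences. *Socs1* (5.73 and 2.78) and *Socs2* (4.05 and 1.73) lie far to the right and below the line, *Cish* (1.65 and 1.56) lies near it, and the other 4 are within the cloud of all genes.

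The other genes of the signalling chain came from lists chosen by function. Of 19 receptor chains 18 were tested and none passed the threshold for IL-4 or genotype in limma, with 5 at an unadjusted p under 0.05 in either comparison, where 7.27% of all genes were for IL-4 and 16.1% for genotype. Their median log2 difference after IL-4 was 0.21. The most abundant were *Il10rb*, a chain of the IL-10 receptor (250 to 346 TPM in untreated and 298 to 347 TPM in IL-4-treated WT libraries), and *Ifnar2*, a chain of the type I interferon receptor (271 to 364 and 296 to 311 TPM). *Il4ra*, which encodes the IL-4-binding chain and was chosen for mention after its values were seen, had 17.7 to 28.2 TPM without and 20.9 to 25.9 TPM with IL-4 in WT libraries, and 17.7 to 27.2 TPM and 11.8 to 23.4 TPM in KI libraries, so all groups overlapped.

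None of the 4 JAK kinases passed the threshold for IL-4 or genotype in limma, and 1, *Jak2*, had an unadjusted p under 0.05 for IL-4. *Jak1*, the most abundant, was 68.6 to 79.7 TPM in untreated and 57.4 to 78.3 TPM in IL-4-treated WT libraries. *Jak2* was higher after IL-4 in all 6 cultures, at 4.66 to 13.9 TPM against 14.2 to 30.0 TPM in WT and 3.87 to 14.5 TPM against 22.6 to 23.4 TPM in KI cultures, with a log2 difference of 1.42 (SE 0.33, limma, adjusted p = 0.180). Of 7 STAT genes 6 were tested in limma and none passed for IL-4 or genotype, with 0 at an unadjusted p under 0.05. *Stat6*, the factor that IL-4 activates, was 55.7 to 101 TPM in untreated and 69.8 to 85.8 TPM in IL-4-treated WT libraries, and 25.6 to 93.9 TPM and 47.8 to 72.1 TPM in KI libraries. *Stat3*, the factor downstream of gp130, was 42.0 to 68.1 and 36.7 to 59.2 TPM in WT and 66.3 to 122 and 51.1 to 84.6 TPM in KI libraries.

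Of 6 genes of the ligase that the SOCS box recruits none passed for IL-4 or genotype in limma, with 0 at an unadjusted p under 0.05. The most abundant was *Elob*, which encodes elongin B, at 483 to 552 TPM in WT and 503 to 644 TPM in KI libraries, and next was *Eloc*, which encodes elongin C, at 183 to 258 TPM and 171 to 274 TPM. Of 12 other inhibitors of the pathway none passed for IL-4 in limma, with 2 at an unadjusted p under 0.05 (7.27% of all genes), and 1 passed for genotype. This was *Ptpn6*, which encodes the phosphatase SHP-1, at 232 to 304 TPM in WT and 90.6 to 181 TPM in KI libraries with a log2 difference of -0.81 (SE 0.16, limma, adjusted p = 0.0407). It moved with the microglia marker sum, which was also lower in KI libraries of either treatment, and the part of that difference was not tested. *Ptpn1*, the phosphatase PTP1B, was 73.5 to 95.8 TPM in untreated and 139 to 163 TPM in IL-4-treated WT libraries and higher after IL-4 in all 6 cultures, with a log2 difference of 0.61 (SE 0.20, limma, adjusted p = 0.526). Of 17 other genes with a SOCS box 13 were tested in limma and none passed for IL-4 or genotype, with 3 at an unadjusted p under 0.05 in either comparison (7.27% of all genes for IL-4 and 16.1% for genotype). The most abundant were *Wsb2*, at 65.9 to 76.0 TPM in untreated and 88.4 to 112 TPM in IL-4-treated WT libraries, and *Wsb1*, at 80.8 to 125 TPM and 66.6 to 92.9 TPM.

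Of 7 tested genes known to respond to IL-4 in macrophages, 5 rose past the threshold in limma, *Retnla* and *Egr2* among them. Of all genes 0.75% did so, and the list was chosen for its response to IL-4. *Retnla*, a secreted product of alternatively activated macrophages, had listed values of 0 in every one of the 6 untreated libraries and of 188 to 2822 TPM in WT and 96.1 to 1229 TPM in KI libraries after IL-4. *Egr2*, a transcription factor of the same programme, was 3.87 to 11.0 TPM in untreated and 69.5 to 85.3 TPM in IL-4-treated WT libraries, and 11.7 to 12.3 TPM and 40.3 to 84.3 TPM in KI libraries. Like *Socs1*, *Egr2* had untreated KI values above all untreated WT values.

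The genes whose pattern over the 12 libraries was most like that of *Socs1* were found by the root mean square difference of log2(TPM + 1) after each gene was centred on its own mean, with 0 for an identical pattern. They were *Clec4a3*, a C-type lectin receptor gene (1.15), *Postn*, which encodes the matrix protein periostin (1.17), *Atp6v0d2*, a proton pump subunit gene (1.17), and *Socs2* (1.19). *Cish* ranked 34 by this order and the other members tested were at ranks from 1332 to 9543. *Clec4a3* was 28.0 ± 19.3 TPM in untreated and 178 ± 53.7 TPM in IL-4-treated WT libraries, and 35.1 ± 9.77 and 154 ± 19.0 TPM in KI libraries. *Atp6v0d2* was 9.38 ± 1.08 and 229 ± 73.6 TPM in WT and 20.1 ± 12.8 and 302 ± 162 TPM in KI libraries. For *Socs2* the nearest genes were *Clec4a3* (0.98), the small GTPase gene *Rab19* (0.98), the transcription factor gene *Nfil3* (0.99) and the cyclooxygenase gene *Ptgs1* (1.02). *Nfil3* was 11.5 ± 9.29 and 77.9 ± 24.2 TPM in WT and 21.2 ± 4.03 and 71.4 ± 6.64 TPM in KI libraries, and *Ptgs1* was 49.1 ± 9.48 and 224 ± 38.9 TPM in WT and 53.3 ± 12.5 and 178 ± 47.8 TPM in KI libraries (SD, n = 3).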

How the data were processed

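Per the methods and the submitters' processing notes, reads were trimmed by the authors (Trim Galore), assigned to ENSEMBL transcripts of GRCm38 (Salmon) and brought to gene level (tximport). Versions are not given in the sources used here. The deposited values are TPM per gene and library and keep no read counts. The authors tested counts with DESeq2. Those were not analysed here, so the depth behind a value and its counting error are unknown, and the spread between cultures is the only measure of error.

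Identifiers were matched to the GRCm38 annotation, which named 48350 of 48623 genes. Values were taken as log2(TPM + 1). The 11204 genes with a mean above 1.5 were fitted with limma 3.58.1 in R 4.3.3 over all 12 libraries, with terms for IL-4, genotype and the interaction of both and with a variance trend. Moderated F-tests took both IL-4 responses, or both genotype differences, together. The Benjamini-Hochberg threshold was 0.05 over all genes tested. *Socs7* was read from a fit of 29745 genes without a filter. The fit was tested on simulated data.

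The 2 libraries of a culture share its number in the labels. Deviations from the group means correlated within a culture with r of 0.340, 0.104 and 0.104 in T13, T33 and T43 and 0.378, 0.121 and 0.0792 in T15, T22 and T32, across genes. For the untreated library the highest correlation with a library of another culture was 0.269, 0.103 and 0.105 in the former and 0.269, 0.188 and 0.0535 in the latter, above that within the culture in T43 and T22. The alternative with culture as a replicate block used a within-culture correlation of 0.198 for genotype. The main fit had no replicate block and counted the 2 libraries of a culture as independent. Its p-values measure the spread of libraries around their group means. For genotype they rest on 3 cultures per genotype, each counted with 2 libraries.

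All 8 members were named. Of each pathway list at most 3 genes past the threshold, those with the smallest p, or else at most 2 with the highest mean TPM were named, with *Trem2* as a check of the labels and the 4 genes nearest to *Socs1* and *Socs2*. Marker genes were named after their values were seen. The members and lists were chosen with earlier results of these data known. Some listed genes are not reported here. Alternatives were a pseudocount of 0.1, a filter at 3 or none, a fit with no variance trend, quantile normalization or scaling by median ratios, the replicate block, and each culture left out in turn. The test of the average difference alone and the astrocyte marker score as a covariate were added after seeing the data.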

Additional observations from a re-analysis of the deposited data

How the results depend on the processing

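With 3 cultures per genotype and no read counts, low values cannot be told from counting error. Such values include those of *Socs7*, untreated *Socs2* and *Cish*, and untreated WT *Socs1*. The *Socs1* interaction of -2.95 became -4.24 with a pseudocount of 0.1. The 2 members past the threshold for IL-4 became 1, *Socs1*, with a pseudocount of 0.1, no filter, a filter at 3 (where *Socs2* was not tested) and no variance trend, and were 1 to 2 when a culture was left out. The 100 genes past it for IL-4 became 61 with no filter, 50 with no variance trend, 240 with the replicate block, 190 with the astrocyte covariate and 151 with the test of the average difference alone, and 46 to 143 when a culture was left out, 46 without T43. The 185 genes for genotype became 16 with no filter, 26 with no variance trend, 77 with the replicate block, 54 with the covariate and 575 with the test of the average alone, and 3 to 191 when a culture was left out, with 3 without T33, 16 without T43, 49 without T15 and 99 without T32. For IL-4 the counts were 56 without T13, 51 without T33 and 65 without T32. The members past it for genotype were 0 to 1, the 1 being *Socs1* without T13. For the interaction 4 genes passed with no filter, none of them a member, and 0 in the other fits.

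The KI minus WT difference of *Socs5* was -0.25 after quantile normalization. When a culture was left out, log2 differences that changed sign ranged as follows. For KI minus WT, *Socs2* ranged from -0.076 to 0.56, *Socs4* from -0.011 to 0.62 and *Socs5* from -0.22 to 0.46. After IL-4, *Socs3* ranged from -0.46 to 0.31, *Socs5* from -0.22 to 0.35 and *Socs6* from -0.40 to 0.013. For the interaction, *Socs3* ranged from -0.34 to 1.21 and *Cish* from -0.58 to 0.30. The replicate block changed no call of a member. Of 334 values of single members under the alternatives 310 kept their direction and side of the threshold. The cause of these changes was not tested.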

Other observations

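Cytokines listed as ligands of receptors that induce SOCS genes were mostly low. Of 12 such ligand genes 3 were tested (*Il1b*, *Osm* and *Tnf*), and none passed the threshold for IL-4 or genotype in limma, with 0 and 1 at an unadjusted p under 0.05. *Il1b*, a pro-inflammatory cytokine, was 38.7 to 213 TPM in untreated and 18.7 to 77.2 TPM in IL-4-treated WT libraries, and 23.2 to 41.1 TPM and 14.9 to 29.5 TPM in KI libraries. *Osm*, which encodes oncostatin M, a ligand of gp130 receptors, was 15.2 to 26.2 TPM and 16.7 to 24.6 TPM in WT and 14.2 to 30.2 TPM and 15.7 to 28.5 TPM in KI libraries.

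*Il6* and *Lif*, also ligands of gp130 receptors, and *Il4* were below the filter and were chosen for mention after their values were seen. *Il6* was listed at 0 in all 6 WT libraries, and was 2.98 to 10.0 TPM in untreated and 0 to 4.86 TPM in IL-4-treated KI libraries. *Lif* was 0 to 1.495 TPM in untreated WT and 0.474 to 11.6 TPM in untreated KI libraries, and 0.306 to 0.875 TPM and 0 to 4.09 TPM after IL-4. *Il4* was 0 to 1.52 TPM in untreated WT and 0.140 to 8.31 TPM in untreated KI libraries, and after IL-4 was listed at 0 in all 3 WT and was 1.13 to 4.77 TPM in KI libraries. *Il13*, *Ifng* and *Ifnb1* were listed at 0 in all 12 libraries.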
